A study of Mus musculus with 12 samples.

Results

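Complex I genes were followed through the first postnatal month in nuclei of Cre-tagged cortical cells. Members were all genes with a symbol that begins with Nduf, without pseudogene symbols ending in -ps, that were listed in the tables of all 3 ages. There were 48 such genes among 25834 genes shared by the tables, 40 named as subunits (Ndufa, Ndufab, Ndufb, Ndufc, Ndufs and Ndufv) and 8 named as assembly factors (Ndufaf). Of these, 46 passed the filter on low values and were tested, 38 of the subunit genes and all 8 assembly factor genes. Ndufb4c and Ndufs6b, which reached at most 0.426 and 1.29 CPM, were not.

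The study sequenced polyadenylated RNA from nuclei of male mouse forebrain cortex in 12 libraries, 4 biological replicates each from newborn pups (P0) and from mice of postnatal day 14 (P14) and day 28 (P28). Every animal was CAG-Sun1/sfGFP +/-; NEX-Cre +/-, so each age group carried one copy of a Cre gene inserted at Neurod6, a transcription factor gene of excitatory cortical neurons, and one copy of a Cre-dependent nuclear envelope tag used to pull down nuclei (INTACT). Library names at P0 and P14 contain WT and those at P28 do not, and no label says at which locus. The RNA is nuclear and is thus not the full cellular mRNA pool. Each age came as its own table, so age and any difference in handling between the tables cannot be told apart.

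Recovered reads per library numbered 13195973 to 16599217 for the P0 group, 25486861 to 33611769 for P14 and 21569262 to 31215435 for P28, and a tested complex I gene had a median of 1101 reads in a library, with 10 as the lowest count. Levels are given as scaled CPM (counts per a fixed total of reads of the shared genes, adjusted by one factor per library). P14 replicate 2 stood apart: its mean correlation with the libraries of its own age was 0.951, against at least 0.976 for the other 11 libraries, and it lay above the other 3 P14 libraries for 33 of 46 tested complex I genes, while 41.7% of all tested genes did so. P0 replicate 1, one of 2 libraries labelled as merged, had 15.9 scaled CPM of Xist, which is transcribed from the inactive X chromosome, against at most 2.32 in the other libraries of these male mice. Markers of excitatory neurons summed to 1530 to 1720 scaled CPM in P0 libraries, 1458 to 2326 in P14 libraries and 2558 to 2664 in P28 libraries, of which Slc17a7, a vesicular glutamate transporter, made up 129 ± 14.1, 1444 ± 412 and 2008 ± 49.8 at P0, P14 and P28 (SD, n = 4 each). Of the 8 markers in this list 1 was higher and 4 lower at P14 than at P0, and 2 were higher and 5 lower at P28 than at P0. Markers of other cell types were present as well. Oligodendrocyte markers summed to 59.7 to 74.6 scaled CPM in P0 libraries, 875 to 2082 in P14 libraries and 1536 to 2496 in P28 libraries, although Mobp and Opalin had no read in at least one library. Vascular markers summed to 865 to 1421 scaled CPM in P0 libraries, 65.6 to 192 in P14 libraries and 39.4 to 79.0 in P28 libraries, and markers of progenitors and cycling cells to 299.8 to 414 scaled CPM in P0 libraries, 42.0 to 99.1 in P14 libraries and 25.5 to 46.1 in P28 libraries. In bulk nuclei, fewer cells of a type and less RNA per cell cannot be told apart.

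Complex I (NADH:ubiquinone oxidoreductase) is the first and largest enzyme of the mitochondrial respiratory chain. It takes electrons from NADH, passes them along iron-sulfur clusters to ubiquinone, and pumps protons across the inner membrane. Its catalytic core is shared with bacteria and is encoded partly in the nucleus and partly in mitochondrial DNA, and accessory subunits surround the core. Assembly factors help to build the complex and are not part of the finished enzyme. Neurons depend on this pathway for the ATP that ion pumping and synaptic transmission consume.

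Complex I transcripts were higher at P14 than at P0 for most members, and by P28 some had declined again. Summed over the 40 subunit genes, the level was 1894 to 2271 scaled CPM in P0 libraries, 2716 to 3059 in P14 libraries and 2308 to 2580 in P28 libraries. Neither later age overlapped P0 in this sum, and every P14 library exceeded every P28 library. The 8 assembly factor genes summed to 149 to 179.6 scaled CPM in P0 libraries, 209 to 301 in P14 libraries and 208 to 222 in P28 libraries. Here the P14 and P28 libraries overlapped and both lay above P0.

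**Figure D1:**
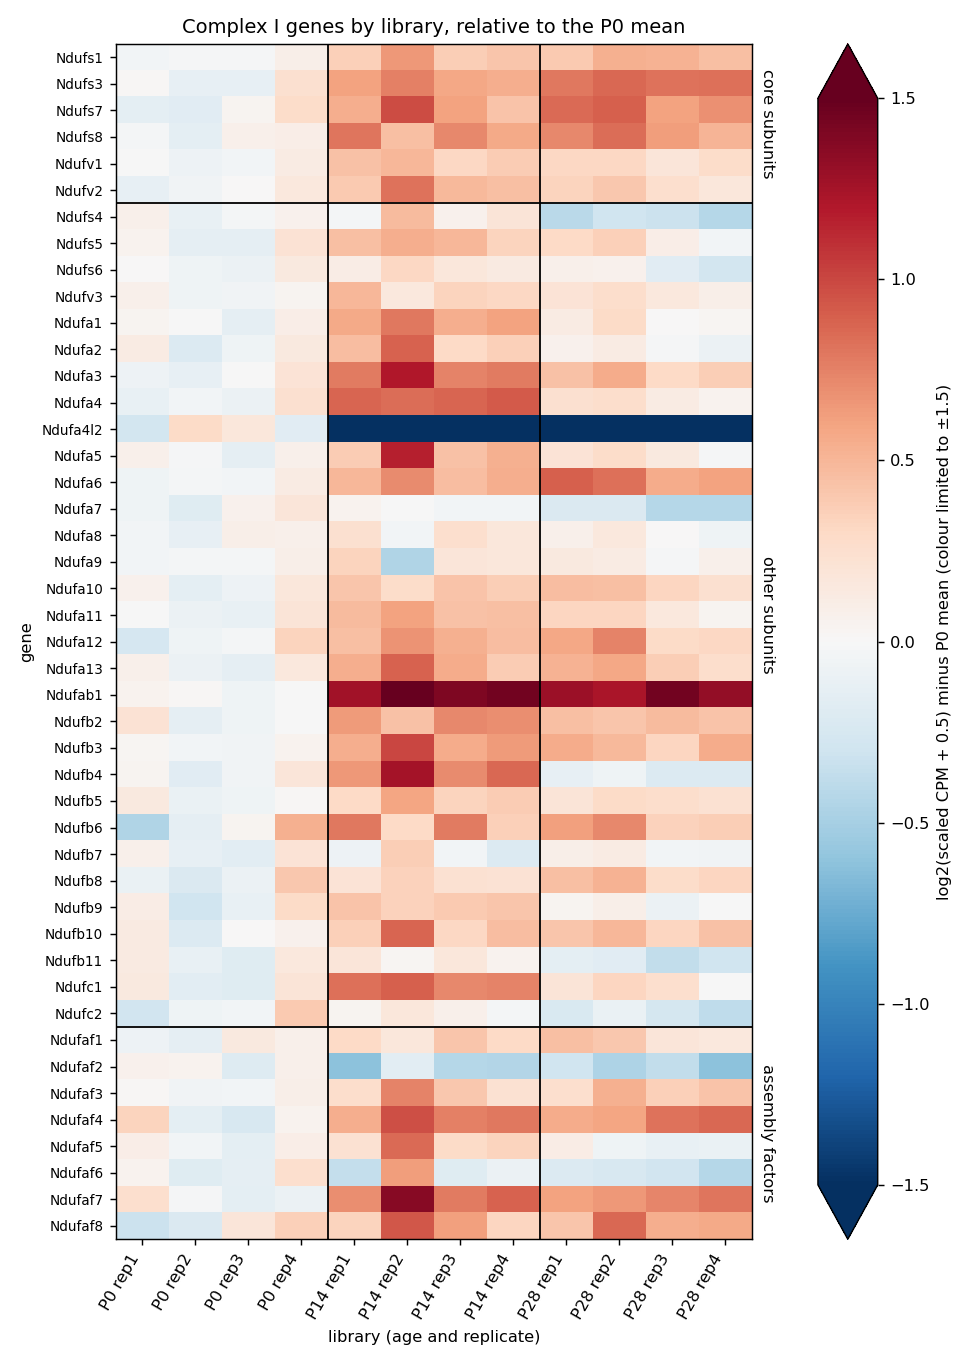
Heat map of 45 tested complex I genes (rows, in blocks of core subunits, other subunits and assembly factors) in the 12 libraries (columns, by age and replicate). Colour is log2(scaled CPM + 0.5) minus the mean of the 4 P0 libraries, limited to ±1.5; red blocks dominate at P14, Ndufab1 is the strongest rise and Ndufa4l2 the strongest fall.

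Gene by gene, limma called 28 of 38 tested subunit genes higher and 1 lower at P14 than at P0 (Benjamini-Hochberg adjusted p under 0.05 over all 15734 genes tested). Over all genes, 34.4% were called higher and 34.5% lower in this comparison, 68.9% in either direction. The median log2 fold change was 0.50 for the subunit genes and 0.01 for all genes. Among the 8 assembly factor genes 6 were higher and 1 lower, with a median of 0.42. Without P14 replicate 2 the counts were 30 higher and 1 lower for subunits and 5 higher and 1 lower for assembly factors. Without P0 replicate 1 they were 27 higher and 1 lower for subunits, and 4 and 1 for assembly factors.

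From P14 to P28 the direction differed. At P28, 11 subunit genes and 1 assembly factor gene were lower than at P14 and 0 of either class were higher, against 9.09% of all genes lower, 9.22% higher and 18.3% in either direction. At an unadjusted limma p under 0.05, 1 subunit gene (Ndufs3) and 0 assembly factor genes were higher, and edgeR and DESeq2 on the recovered reads called 0 subunits and 0 assembly factors higher. The median log2 fold change was −0.18 for subunits, −0.04 for assembly factors and −0.01 for all genes. The count of lower subunit genes varied with the libraries used. It was 5 without P28 replicate 3, 6 without P28 replicate 4 and 11 without P14 replicate 2. Over all 15734 tested genes, lower calls numbered 1431 with every library, and 902, 913 and 2097 in these settings. The subunit median was then −0.18, −0.18 and −0.17. The lower assembly factor, Ndufaf5, was no longer called without P28 replicate 2, 3 or 4.

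Set directly against P0, the P28 libraries had 19 subunit genes higher and 4 lower, with 35.7% and 35.6% of all genes called in these directions and 71.2% in either. Their median log2 fold change was 0.23, against 0.00 for all genes. For assembly factors 5 were higher and 1 lower, with a median of 0.34. Without P0 replicate 1 the subunit counts were 17 and 4, and without P14 replicate 2 they were 21 and 4. The 3 comparisons share libraries with each other and are not independent. On the deposited values, where each age keeps its own normalization, the median of all genes itself moved by 0.47, −0.20 and 0.28 for P14 against P0, P28 against P14 and P28 against P0. Subunit genes were then called higher and lower in 37 and 1, 0 and 25, and 31 and 1 cases. Of 15759 genes tested on that scale, 8567 and 3148, 674 and 3862, and 7210 and 4118 were called higher and lower. The subunit medians relative to that shift were 0.50, −0.19 and 0.23.

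Most members had their highest level at P14. The highest mean fell at P14 for 29 of 38 subunit genes and 5 of 8 assembly factor genes, and at P14 for 25.5% of all tested genes. Leaving out P14 replicate 2 these numbers were 28 subunit genes, 3 assembly factor genes and 20.9% of all genes. All 4 P14 libraries lay above all 8 libraries of the other ages for 10 subunit genes (Ndufa1, Ndufa2, Ndufa3, Ndufa4, Ndufa5, Ndufa11, Ndufb4, Ndufb5, Ndufb9 and Ndufc1) and for Ndufaf5, a pattern found in 3.30% of all tested genes. No test was made of these proportions. Oligodendrocyte and microglia marker sums were also higher at P14 than at P0, and vascular and progenitor marker sums lower, as given above for all but microglia (19.3 to 28.6 scaled CPM in P0 libraries, 36.6 to 75.9 in P14 libraries and 53.2 to 66.3 in P28 libraries). Astrocyte markers summed to 306 to 484 scaled CPM in P0 libraries, 255 to 699.9 in P14 libraries and 209 to 265 in P28 libraries, with 2 of 6 called lower at P28 than at P14, or 5 of 6 without P14 replicate 2. At P28 against P14, 4 of 8 vascular and 2 of 7 progenitor markers were also lower. Inhibitory neuron markers summed to 376 to 395 scaled CPM in P0 libraries, 220.4 to 353 in P14 libraries and 293 to 384 in P28 libraries, and oligodendrocyte precursor markers to 115 to 145 scaled CPM in P0 libraries, 73.3 to 125 in P14 libraries and 80.2 to 114 in P28 libraries. Their part in the complex I differences was not tested. P14 replicate 2, with the highest subunit sum of its age, had the lowest P14 sum in all 8 marker lists, neuronal lists included.

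**Figure D2:**
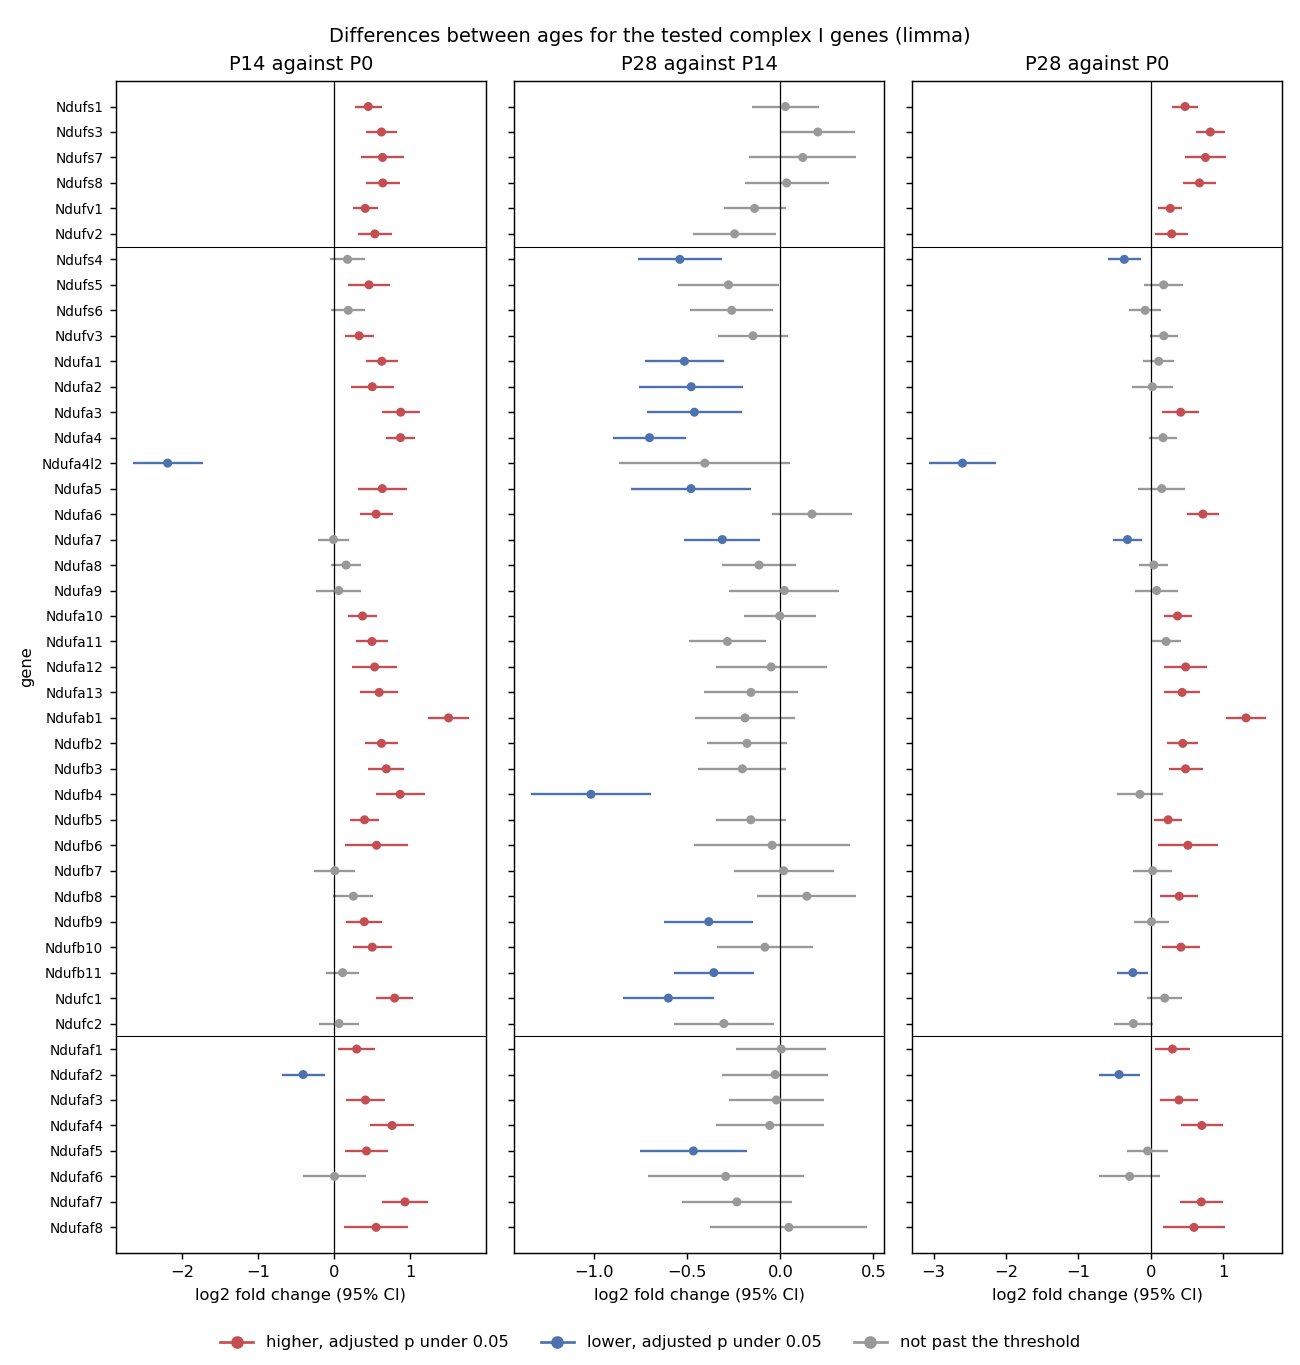
Log2 fold changes (points) with 95% confidence intervals (lines) of 45 tested complex I genes from limma, for P14 against P0, P28 against P14 and P28 against P0; the horizontal axes differ between panels, and lines separate core subunits, other subunits and assembly factors from top to bottom. Red marks genes called higher, blue genes called lower and grey the rest: the first panel is mostly red, the middle panel holds no red point.

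The core subunits described here, Ndufv1, Ndufv2, Ndufs1, Ndufs3, Ndufs7 and Ndufs8, rose after birth. All 6 were higher at P14 than at P0 and all 6 were higher at P28 than at P0, with no overlap between the 4 and 4 libraries in any of these cases (29.2% and 35.6% of all tested genes were higher without overlap in these comparisons). Between P14 and P28 limma called 0 of 6 in either direction; at an unadjusted p under 0.05, 1 was higher (Ndufs3) and 1 lower (Ndufv2), and edgeR and DESeq2 called 0. These subunits carry the electron path, which starts in the NADH-oxidizing N module and ends in the ubiquinone-reducing Q module.

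Of the N module, Ndufv1 binds the flavin that accepts electrons from NADH. It had 143, 136, 138 and 156 scaled CPM at P0, 194, 202, 177 and 187 at P14, and 177, 178, 162 and 174 at P28. The lowest P14 and P28 libraries were above the highest P0 library. The log2 fold change was 0.41 ± 0.08 (limma adjusted p = 0.000359) at P14 and 0.27 ± 0.08 (limma adjusted p = 0.00665) at P28, each against P0. Ndufv2, the iron-sulfur partner of Ndufv1, had 81.5, 86.0, 89.4 and 99.5 scaled CPM at P0, 116, 156, 125 and 122 at P14, and 112, 117, 106 and 100 at P28. P14 replicate 2 was its highest library, and its narrowest margin was between the lowest P28 library and the highest P0 library. Against P0 it changed by 0.53 ± 0.10 (limma adjusted p = 0.000444) at P14 and by 0.29 ± 0.10 (limma adjusted p = 0.0234) at P28; the P28 call was lost in 5 of 25 alternative settings. Ndufs1, the largest iron-sulfur subunit of the module, had 91.0, 92.8, 92.4 and 99.6 scaled CPM at P0, 120.3, 148, 121 and 126 at P14, and 124, 136, 135 and 129 at P28, so P14 and P28 overlapped and both lay above P0. Its differences from P0 were 0.45 ± 0.08 (limma adjusted p = 0.000319) at P14 and 0.47 ± 0.08 (limma adjusted p = 0.000177) at P28.

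In the Q module, Ndufs7 holds the last iron-sulfur cluster before ubiquinone. Ndufs7 had 36.7, 36.0, 42.0 and 49.4 scaled CPM at P0, 59.5, 80.4, 61.9 and 54.98 at P14, and 73.5, 76.0, 62.1 and 65.8 at P28. For Ndufs7 the P28 libraries overlapped those of P14, and both ages lay above P0. It differed from P0 by 0.64 ± 0.13 (limma adjusted p = 0.000804) at P14 and by 0.76 ± 0.13 (limma adjusted p = 0.000180) at P28. Ndufs8, which carries iron-sulfur clusters that feed Ndufs7, had 39.4, 36.5, 42.7 and 43.5 scaled CPM at P0, 71.1, 55.5, 67.1 and 60.4 at P14, and 66.9, 72.7, 62.5 and 57.9 at P28. P14 replicate 2 was its lowest P14 library, and its change at P14 against P0 was 0.64 ± 0.10 (limma adjusted p = 0.000107). Ndufs3, a subunit without a cofactor around which the Q module is built, had 51.2, 46.3, 46.4 and 59.8 scaled CPM at P0, 77.4, 85.9, 76.1 and 73.9 at P14, and 87.9, 92.5, 89.1 and 90.5 at P28. All 4 P28 libraries were above all 4 P14 libraries, a separation seen for no other tested complex I gene in that direction (14.2% of all tested genes), but limma did not call this step (0.20 ± 0.09, limma adjusted p = 0.148). At P28 against P0 its change was 0.82 ± 0.09 (limma adjusted p = 2.80e-06), the second largest rise among the members in that comparison.

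**Figure D3:**
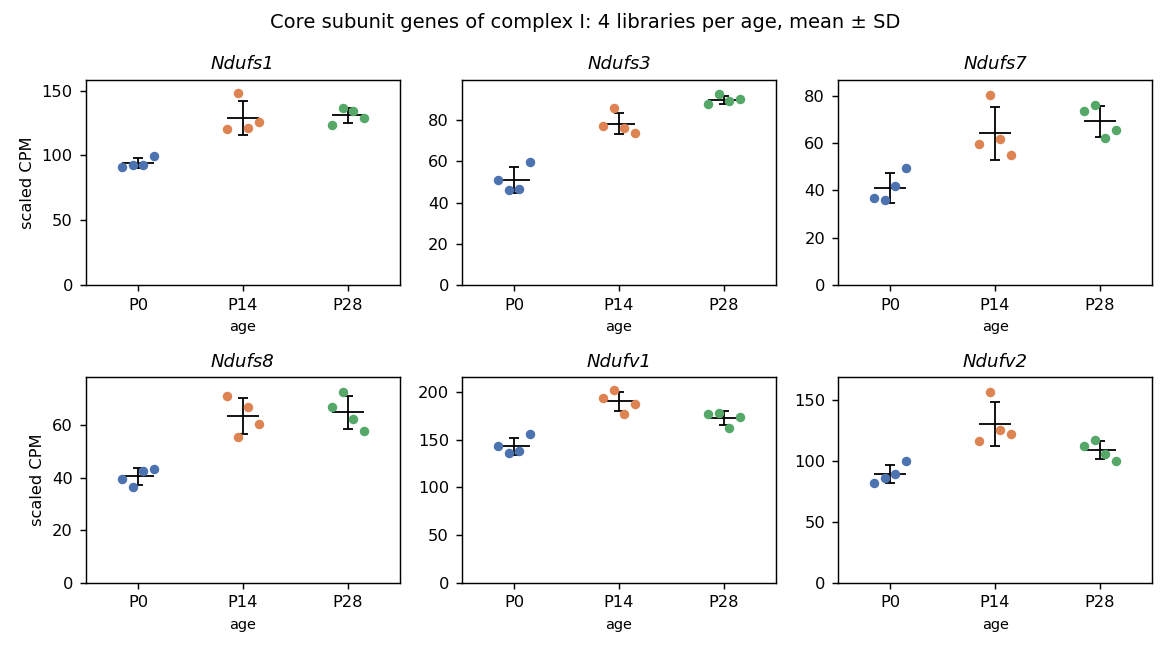
Levels of 6 core subunit genes in scaled CPM (vertical axes from 0, scales differ) at P0, P14 and P28; points are the 4 libraries of an age, bars the mean ± SD. P14 and P28 points lie above all P0 points in each panel, and Ndufs3 is the gene whose P28 points all lie above P14.

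The accessory subunits were less uniform. Of 31 tested, 21 were higher and 1 lower at P14 than at P0, 0 higher and 11 lower at P28 than at P14, and 12 higher and 4 lower at P28 than at P0. The shares of all tested genes in these directions were 34.4% and 34.5%, 9.22% and 9.09%, and 35.7% and 35.6%, so that the share of accessory genes higher at P28 than at P0 was near that of all genes. By family, the 15 Ndufa and Ndufab genes gave 11 higher and 1 lower at P14 against P0, 6 lower at P28 against P14, and 6 higher and 2 lower at P28 against P0. The 12 tested Ndufb and Ndufc genes, most of which sit in the membrane arm, gave 8 higher, 4 lower, and 6 higher with 1 lower in the same order of comparisons.

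Ndufab1 showed the largest rise of all members. It encodes the mitochondrial acyl carrier protein, which is a complex I subunit and also serves mitochondrial fatty acid synthesis. It had 19.7, 19.3, 18.2 and 18.8 scaled CPM at P0, 46.1, 73.4, 50.7 and 52.7 at P14, and 46.8, 45.1, 52.4 and 48.0 at P28. Both later ages were far above P0, with P0 libraries within a span of less than 2 scaled CPM. The gene was 2.84-fold higher at P14 than at P0 (log2 fold change 1.51 ± 0.13, limma adjusted p = 1.93e-07) and 2.49-fold higher at P28 than at P0 (1.32 ± 0.13, limma adjusted p = 5.45e-07). Acyl carrier protein sits in complex I beside the LYR-motif subunits Ndufa6 and Ndufb9. Ndufa6 had 30.2, 30.9, 30.7 and 34.3 scaled CPM at P0, 44.5, 51.6, 43.5 and 46.2 at P14, and 59.2, 56.1, 46.5 and 48.1 at P28; it rose at P14 (0.55 ± 0.10, limma adjusted p = 0.000261) and at P28 (0.72 ± 0.10, limma adjusted p = 2.15e-05), both against P0. Ndufb9 averaged 75.0 ± 13.3, 97.7 ± 2.36 and 74.7 ± 3.87 scaled CPM at P0, P14 and P28 (SD, n = 4 each), so that P28 was back in the range of P0. The change of Ndufb9 at P28 against P0 was 0.01 ± 0.11 with a 95% interval of −0.23 to 0.25. A difference in course between the 2 LYR subunits was not tested.

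A transient level at P14 marked several small subunits. Ndufa4, long counted in complex I and now assigned to cytochrome c oxidase, had 125, 131, 126 and 159 scaled CPM at P0, 246, 240.1, 248 and 254 at P14, and 159, 162, 147 and 139 at P28. Its P14 libraries formed a tight group above all others. The gene was 1.83-fold higher at P14 than at P0 (0.87 ± 0.09, limma adjusted p = 1.63e-06), lower at P28 than at P14 (−0.70 ± 0.09, limma adjusted p = 0.000356), and not called at P28 against P0 (0.17 ± 0.09, limma adjusted p = 0.110). Without Ndufa4 and its paralog Ndufa4l2, a reading added after the data were seen, 27 of 36 subunit genes were higher and 0 lower at P14 against P0, 0 higher and 10 lower at P28 against P14, and 19 higher and 3 lower at P28 against P0. Ndufb4, a membrane-arm subunit, had 6.50, 5.54, 6.05 and 7.25 scaled CPM at P0, 10.2, 15.7, 10.7 and 11.9 at P14, and 5.73, 6.04, 5.41 and 5.39 at P28. P28 libraries lay at the level of P0 or just under it. Its fall at P28 against P14 was the largest of the family at 0.494 times the P14 level (−1.02 ± 0.15, limma adjusted p = 0.000752), after a rise at P14 against P0 (0.87 ± 0.15, limma adjusted p = 0.000164). Ndufb4c is a near copy of Ndufb4, and how reads shared by such copies were counted was not stated in the labels or headers.

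Ndufc1, another membrane-arm subunit, had 28.5, 23.0, 22.6 and 29.5 scaled CPM at P0, 45.8, 48.4, 42.6 and 43.4 at P14, and 29.5, 32.3, 30.8 and 25.7 at P28. Every P14 library exceeded the other 8, and the difference was 0.80 ± 0.11 (limma adjusted p = 2.94e-05) at P14 against P0 and −0.60 ± 0.11 (limma adjusted p = 0.00321) at P28 against P14. Ndufa3, a short single-pass protein, had 34.1, 32.9, 35.8 and 41.5 scaled CPM at P0, 61.9, 83.4, 60.8 and 61.9 at P14, and 48.9, 53.0, 44.3 and 46.4 at P28. Here P28 remained between the other ages. Its change was 0.88 ± 0.12 (limma adjusted p = 1.77e-05) at P14 against P0, −0.46 ± 0.12 (limma adjusted p = 0.0165) at P28 against P14 and 0.41 ± 0.12 (limma adjusted p = 0.00626) at P28 against P0. Ndufa1, an X-linked subunit needed early in assembly of the membrane arm, averaged 28.3 ± 1.94, 44.0 ± 3.57 and 30.7 ± 2.80 scaled CPM at P0, P14 and P28 (SD, n = 4 each), with calls of 0.63 ± 0.10 (limma adjusted p = 7.27e-05) at P14 against P0 and −0.52 ± 0.10 (limma adjusted p = 0.00350) at P28 against P14. Ndufa2 and Ndufa5 had the same calls (0.50 and 0.63 at P14 against P0, −0.48 and −0.48 at P28 against P14). The later call of Ndufa5 was lost in 13 of 25 settings and that of Ndufb9 in 8.

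**Figure D4:**
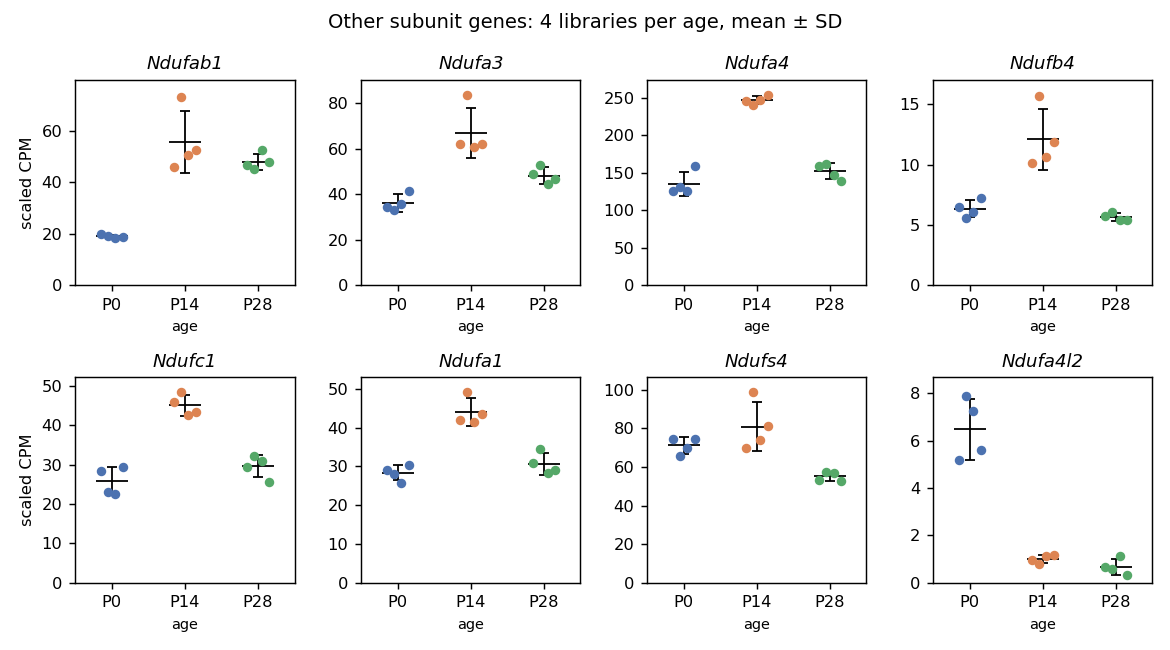
Levels in scaled CPM (vertical axes from 0, scales differ) of 8 other subunit genes at P0, P14 and P28; points are the 4 libraries of an age, bars the mean ± SD. Ndufab1 stays high at P28, Ndufa4, Ndufb4, Ndufc1 and Ndufa1 peak at P14, Ndufs4 is lowest at P28, and Ndufa4l2 is high at P0 alone.

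Ndufs4, Ndufa7 and Ndufb11 were called lower at P28 than at P0. Ndufs4 is an accessory subunit of the N module whose deletion in mice is a standard model of mitochondrial encephalopathy. It had 74.7, 65.6, 69.9 and 74.3 scaled CPM at P0, 69.7, 99.0, 74.1 and 81.1 at P14, and 53.4, 57.5, 56.7 and 52.6 at P28. P14 overlapped P0, and all P28 libraries were below both. Its difference was −0.54 ± 0.10 (limma adjusted p = 0.00388) at P28 against P14 and −0.37 ± 0.10 (limma adjusted p = 0.00662) at P28 against P0. Ndufa7, a peripheral-arm subunit, had 58.2, 53.5, 63.8 and 68.9 scaled CPM at P0, 62.9, 60.4, 59.2 and 59.3 at P14, and 52.1, 52.3, 45.2 and 45.1 at P28. P0 and P14 overlapped while P28 lay lower, with −0.31 ± 0.09 (limma adjusted p = 0.0373) at P28 against P14 and −0.32 ± 0.09 (limma adjusted p = 0.00791) at P28 against P0; the P28 against P14 call was lost in 10 of 25 settings, and on the deposited values Ndufs4 and Ndufa7 were not called at P28 against P0. X-linked Ndufb11 differed at P28 by −0.36 ± 0.10 (limma adjusted p = 0.0251) against P14 and by −0.25 ± 0.10 (limma adjusted p = 0.0382) against P0. The first call was lost in 5 settings, and the second was lost in 9 and reversed in sign on the deposited values. P28 libraries of Ndufb11 (44.1 to 51.7 scaled CPM) overlapped those of P0 (50.3 to 64.1 scaled CPM).

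Ndufa4l2 fell more than any other member. It is a paralog of Ndufa4 known as a target of hypoxia-inducible factor and as a transcript enriched in brain mural cells. It had 5.18, 7.87, 7.23 and 5.61 scaled CPM at P0, 0.951, 0.801, 1.14 and 1.15 at P14, and 0.663, 0.558, 1.14 and 0.319 at P28. No P14 or P28 library came near the P0 range. The log2 fold change was −2.20 ± 0.21 (limma adjusted p = 8.46e-07) at P14 and −2.60 ± 0.21 (limma adjusted p = 1.22e-07) at P28, each against P0, and at so low a level the pseudocount of 0.5 understates the fold. All 8 vascular markers fell in both comparisons, among them Pdgfrb, a pericyte receptor, at 103 ± 21.9, 13.5 ± 2.71 and 5.81 ± 1.04 scaled CPM at P0, P14 and P28 (SD, n = 4 each), and Rgs5 at 417 ± 131, 58.6 ± 26.3 and 22.1 ± 3.94. No vascular marker was at 0 in any library. Their part in the Ndufa4l2 result was not tested. Ndufa4l2 overlaps Shmt2 in the RefSeq annotation, as 16 of the 48 members overlap another gene, and the strand counted was not stated in the labels or headers.

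Among the remaining accessory genes, Ndufb2, Ndufb3, Ndufb5, Ndufb6, Ndufb10, Ndufa10, Ndufa12 and Ndufa13 were called higher at both later ages than at P0. Their log2 fold changes at P14 against P0 ran between 0.37 for Ndufa10 and 0.69 for Ndufb3. Libraries of Ndufb6 overlapped between ages, and its call was lost in 5 of 25 settings at P14 and in 6 at P28. The P28 call of Ndufb5 was lost in 5. Ndufv3, Ndufa11 and Ndufs5 were called higher at P14 against P0 alone (0.33, 0.50 and 0.46), although all P28 libraries of Ndufv3 lay above P0. Ndufb8 was called at P28 against P0 alone (0.39 ± 0.12, limma adjusted p = 0.0111), where P0 replicate 4 overlapped P28. Ndufa8, Ndufa9, Ndufb7, Ndufc2 and Ndufs6 were called in no comparison. For Ndufb7 the 95% interval at P28 against P0 was −0.24 to 0.30. For Ndufa9 it was −0.24 to 0.36 at P14 against P0, where P14 replicate 2 had 43.8 scaled CPM and the other P14 libraries 67.3 to 75.5. Without that library Ndufa9 was higher at P14 (0.23, limma adjusted p = 0.0143), and Ndufa8 likewise (0.22, limma adjusted p = 0.0209). Ndufs6b, which RefSeq lists as a pseudogene, had 0 reads in 2 P0 libraries and 0.569 to 1.29 scaled CPM at P14.

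Since most members rose together at P14, the 250 bases before the annotated start of each gene were searched for 3 short motifs linked to nuclear genes of mitochondria. RefSeq (GRCm38.p6) gave a window for 40 of the 48 members. The palindrome-like NRF1 site was searched as GCGCA, any base (N), then GCGC on both strands. It occurred for 7 of these 40 genes (17.5%), Ndufa5, Ndufa8, Ndufa11, Ndufaf4, Ndufb4, Ndufs5 and Ndufs6, and for 4.23% of all 27025 genes with a window. The ETS-family site CCGGAAG, the type bound by GABPA, occurred in 12.5% and 7.83%, and the cyclic AMP response element TGACGTCA in 7.5% and 1.77%. The 27025 genes were not limited to those past the filter on low values, while 46 of the 48 members passed it. The percentages thus come from unlike sets of genes, and their differences were not tested. The window of Ndufa11 held both an NRF1 and a cyclic AMP match, which did not overlap. The 4 windows shown run 5′ to 3′ along the gene with the last base next to the start and motif matches in capitals. They were chosen as follows: Ndufb4, the member with the largest fall at P28 against P14 and with 3 NRF1 matches 182, 70 and 13 bases before the start; Ndufs5, an intermembrane-space subunit with 1 NRF1 match; Ndufb2, a membrane-arm subunit with the cyclic AMP element; and Ndufab1, the largest rise, with none of the 3 motifs.
Ndufb4: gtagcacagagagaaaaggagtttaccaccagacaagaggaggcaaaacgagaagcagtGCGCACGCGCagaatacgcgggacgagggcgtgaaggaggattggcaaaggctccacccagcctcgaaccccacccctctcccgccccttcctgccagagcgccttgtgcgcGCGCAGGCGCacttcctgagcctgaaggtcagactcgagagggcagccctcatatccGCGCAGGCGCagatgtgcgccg
Ndufs5: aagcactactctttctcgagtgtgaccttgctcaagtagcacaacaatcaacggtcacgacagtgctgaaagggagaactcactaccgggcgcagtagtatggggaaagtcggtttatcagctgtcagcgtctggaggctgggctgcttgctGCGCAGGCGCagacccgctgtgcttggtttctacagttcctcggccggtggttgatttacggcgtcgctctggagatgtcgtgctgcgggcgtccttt
Ndufb2: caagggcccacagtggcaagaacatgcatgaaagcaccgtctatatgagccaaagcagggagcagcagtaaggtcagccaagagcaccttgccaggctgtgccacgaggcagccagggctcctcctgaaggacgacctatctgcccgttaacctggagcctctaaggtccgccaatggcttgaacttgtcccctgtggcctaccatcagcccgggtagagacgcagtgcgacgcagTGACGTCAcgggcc
Ndufab1: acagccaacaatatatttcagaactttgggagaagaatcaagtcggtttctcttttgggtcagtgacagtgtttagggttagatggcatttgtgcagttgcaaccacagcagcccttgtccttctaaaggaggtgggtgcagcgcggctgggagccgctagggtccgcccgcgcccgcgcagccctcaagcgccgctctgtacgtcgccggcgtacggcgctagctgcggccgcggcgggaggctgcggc
The windows lie at chr16:37654369-37654618, minus strand (Ndufb4), chr4:123718187-123718436, minus strand (Ndufs5), chr6:39592315-39592564, plus strand (Ndufb2) and chr7:122101849-122102098, minus strand (Ndufab1), and none of the 4 overlaps another annotated gene. Among the other genes with an NRF1 match, the windows of Ndufa8, Ndufa11, Ndufaf4 and Ndufs6 do overlap another annotated gene. Genes with an NRF1 match took several courses. Ndufb4 rose and fell again as given above. Ndufs5 averaged 11.95 ± 1.498, 16.5 ± 1.02 and 13.6 ± 1.76 scaled CPM at the 3 ages and was called at P14 against P0 alone (limma adjusted p = 0.00561). Ndufa5, Ndufa11 and Ndufaf4 were also called higher at P14 against P0 (0.63, 0.50 and 0.76), and Ndufs6 and Ndufa8 were not called. The gene for NRF1 itself averaged 43.4 ± 0.411, 29.8 ± 10.4 and 24.0 ± 4.07 scaled CPM at P0, P14 and P28 (SD, n = 4 each), and was called lower at P14 than at P0 (−0.59, limma adjusted p = 0.0111). A match is a string in the sequence and was not tested for binding.

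Of the assembly factors, Ndufaf1 belongs to the MCIA complex that builds the membrane arm. It had 14.7, 14.1, 17.2 and 16.4 scaled CPM at P0, 19.2, 17.6, 20.9 and 19.3 at P14, and 21.5, 20.8, 17.8 and 17.4 at P28. P14 and P28 overlapped just above P0, with 0.30 ± 0.11 (limma adjusted p = 0.0309) at P14 against P0 and 0.30 ± 0.11 (limma adjusted p = 0.0278) at P28 against P0. The P14 call was lost in 9 of 25 settings and the P28 call in 6. Ndufaf3 and Ndufaf4 act together on the early Q module. Ndufaf3 had 21.6, 20.6, 20.8 and 22.7 scaled CPM at P0, 25.9, 36.3, 28.5 and 25.1 at P14, and 25.6, 31.1, 27.5 and 28.9 at P28, and Ndufaf4 had 44.3, 31.6, 29.7 and 36.3 scaled CPM at P0, 51.3, 68.9, 59.5 and 60.9 at P14, and 51.6, 52.9, 62.1 and 64.3 at P28. For both genes the P28 libraries overlapped those of P14, and all lay above P0. Ndufaf3 differed by 0.41 ± 0.12 (limma adjusted p = 0.00758) at P14 and 0.39 ± 0.12 (limma adjusted p = 0.00993) at P28, and Ndufaf4 by 0.76 ± 0.13 (limma adjusted p = 0.000202) and 0.70 ± 0.13 (limma adjusted p = 0.000353), all against P0.

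Ndufaf7, a mitochondrial methyltransferase, showed the largest rise of this class. It had 44.8, 36.9, 33.7 and 35.3 scaled CPM at P0, 61.0, 97.1, 64.9 and 69.7 at P14, and 57.3, 59.0, 62.6 and 65.9 at P28. P14 replicate 2 was the highest library by a wide margin, and the rise was 0.93 ± 0.14 (limma adjusted p = 4.36e-05) with it and 0.79 without it. At P28 against P0 the change was 0.70 ± 0.14 (limma adjusted p = 0.000467). Ndufaf5 hydroxylates an arginine of Ndufs7 and is held stable by Ndufaf8. Ndufaf5 had 30.2, 27.3, 25.5 and 30.3 scaled CPM at P0, 33.2, 51.3, 34.6 and 35.7 at P14, and 30.6, 27.0, 26.0 and 26.2 at P28. It rose at P14 against P0 (0.42 ± 0.13, limma adjusted p = 0.0117) and fell at P28 against P14 (−0.47 ± 0.13, limma adjusted p = 0.0280). The later call was lost in 5 of 25 settings. Ndufaf8 had 2.47, 2.70, 3.69 and 4.26 scaled CPM at P0, 4.18, 6.58, 5.19 and 4.14 at P14, and 4.45, 6.25, 4.90 and 5.01 at P28. Unlike Ndufaf5, its mean at P28 was no lower than at P14, although a difference between the 2 genes was not tested. Its changes against P0 were 0.55 ± 0.20 (limma adjusted p = 0.0226) at P14 and 0.60 ± 0.20 (limma adjusted p = 0.0144) at P28, and the P14 call was lost in 4 of 24 settings, which left out P0 replicate 1, P0 replicate 2, both merged libraries or P14 replicate 2 (highest limma adjusted p = 0.0877); the P28 call was lost without both merged libraries.

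Ndufaf2 was the one Ndufaf gene called lower at P14 and at P28 than at P0. It occupies the place of its paralog Ndufa12 during late assembly and leaves when that subunit is inserted. Ndufaf2 had 13.6, 13.5, 11.3 and 13.8 scaled CPM at P0, 8.33, 11.62, 9.51 and 9.42 at P14, and 10.47, 9.28, 9.93 and 8.30 at P28. P14 replicate 2 overlapped the lowest P0 library, and all P28 libraries were below P0. The differences were −0.41 ± 0.13 (limma adjusted p = 0.0134) at P14 and −0.44 ± 0.13 (limma adjusted p = 0.00883) at P28, each against P0; the direction of the P14 difference flipped on the deposited values, where the P28 call was lost, as it was without both merged libraries. Ndufa12 had 19.0, 21.7, 22.2 and 28.8 scaled CPM at P0, 31.3, 36.6, 33.1 and 31.3 at P14, and 34.1, 38.3, 27.8 and 28.3 at P28, and differed by 0.53 ± 0.14 (limma adjusted p = 0.00383) at P14 and 0.48 ± 0.14 (limma adjusted p = 0.00673) at P28 against P0. Ndufaf6, which is needed at an early step, had 7.95, 6.64, 6.92 and 9.20 scaled CPM at P0, 5.86, 12.02, 6.67 and 7.16 at P14, and 6.54, 6.38, 6.13 and 5.52 at P28. P14 replicate 2 was far above the other P14 libraries, and no comparison was called, with 95% intervals of −0.42 to 0.42 at P14 against P0 and −0.71 to 0.13 at P28 against P0. All P28 libraries of Ndufaf6 nevertheless lay below all P0 libraries, as for 35.7% of all tested genes.

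**Figure D5:**
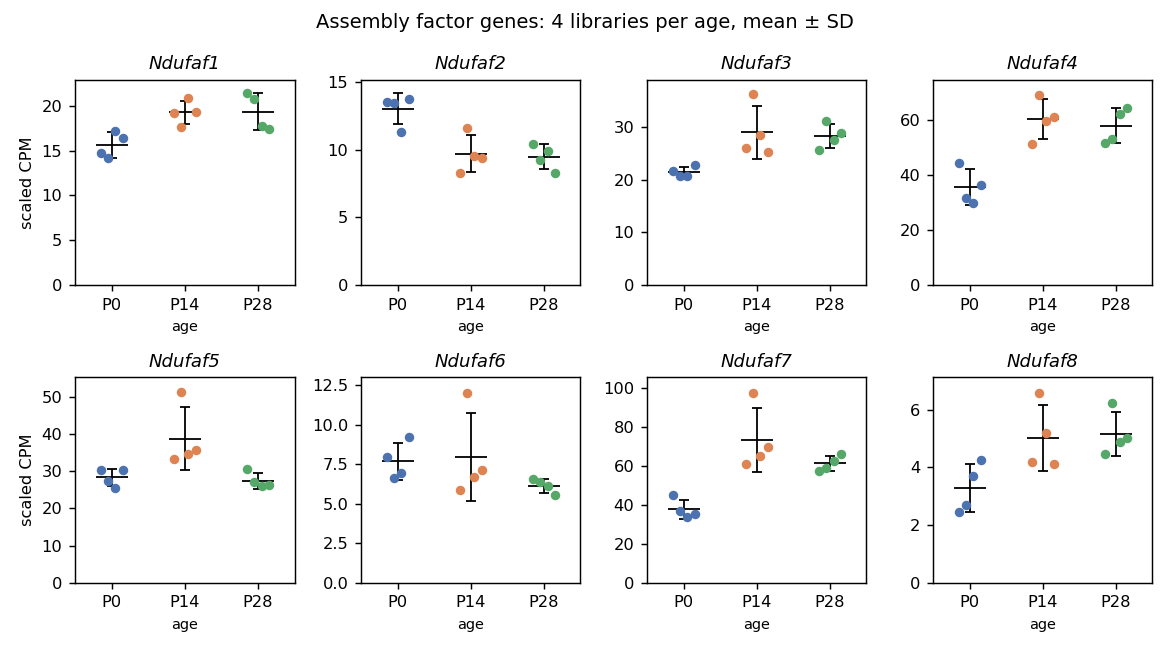
Levels in scaled CPM (vertical axes from 0, scales differ) of the 8 Ndufaf genes at P0, P14 and P28; points are the 4 libraries of an age, bars the mean ± SD. Ndufaf2 is the gene with its highest mean at P0, and P14 replicate 2 is the separate high point in the panels of Ndufaf5, Ndufaf6 and Ndufaf7.

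Other genes of the pathway were listed for comparison. Of all tested genes, 34.4% were called higher and 34.5% lower at P14 against P0, and 9.22% and 9.09% at P28 against P14. At P28 against P0 these shares were 35.7% and 35.6%. The tables held 5 of the 7 mitochondrially encoded core subunits, of which 4 (mt-Nd1, mt-Nd2, mt-Nd4 and mt-Nd6) were higher at P14 than at P0 and 4 higher at P28 than at P0, with 0 of 5 called between P14 and P28 (0 at an unadjusted p under 0.05, and 0 by edgeR and by DESeq2). Their sum was 126 to 241 scaled CPM in P0 libraries, 227 to 309.7 in P14 libraries and 233 to 292 in P28 libraries, so P0 and the later ages overlapped through P0 replicate 2. These transcripts are made inside mitochondria, outside the nucleus. How far their level depended on the purity of each nuclear preparation was not tested. mt-Nd1 averaged 48.1 ± 15.1, 82.0 ± 10.96 and 78.7 ± 7.95 scaled CPM at P0, P14 and P28 (SD, n = 4 each), with 0.82 at P14 against P0 (limma adjusted p = 0.00230).

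Assembly factors with other names moved in several ways. Of 13 tested, 8 were higher and 1 lower at P14 against P0, and 2 higher and 3 lower at P28 against P14. Of all tested genes, 34.4% and 34.5% were called in the first pair of directions and 9.22% and 9.09% in the second. At P28 against P0, 3 were higher and 0 lower, a share of higher genes below the 35.7% of all tested genes. Tmem126b, a partner of Ndufaf1 in the MCIA complex, averaged 13.9 ± 2.04, 30.2 ± 1.74 and 30.8 ± 1.61 scaled CPM at P0, P14 and P28 (SD, n = 4 each), a rise of 1.10 at P14 against P0 (limma adjusted p = 1.21e-06) with a like mean at P28. Foxred1, needed for the distal membrane arm, rose by 0.92 (limma adjusted p = 0.000411). Dmac2 rose in both steps, by 0.55 at P14 against P0 and 0.48 at P28 against P14 (limma adjusted p = 0.00448), while Dmac1, Tmem126a and Tmem70 were higher at P14 than at P0 and lower at P28 than at P14. Ptcd1, which processes mitochondrial transcripts, went the other way, with −0.63 and 0.44. Acad9 and Ecsit, of the same list as Tmem126b, were called in no comparison. Their changes were 0.13 and 0.26 at P14 against P0 (limma adjusted p = 0.186 and 0.0723). At P28 against P0 they were 0.01 and 0.03.

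Regulators of mitochondrial gene expression were mixed: of 16, 4 were higher and 8 lower at P14 than at P0, and 5 higher and 9 lower at P28 than at P0. At P28 against P14, 0 were called (4 higher and 1 lower at an unadjusted p under 0.05, 0 by edgeR and 1 by DESeq2). The share higher than at P0 was below that of all tested genes, which was 34.4% at P14 and 35.7% at P28. The share lower was above that of all tested genes (34.5% and 35.6%). The coactivator gene Ppargc1a averaged 18.4 ± 2.05, 38.9 ± 2.64 and 34.7 ± 2.41 scaled CPM at P0, P14 and P28 (SD, n = 4 each), and rose at P14 against P0 by 1.06 (limma adjusted p = 8.12e-07). Its partner receptor Esrra rose by 1.12 (limma adjusted p = 2.49e-05). Hcfc1, a chromatin cofactor, fell (−1.18, limma adjusted p = 3.05e-07), as did Yy1 (−0.77) and Twnk, the mitochondrial DNA helicase (−0.77).

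Side by side with complex I, subunit genes of the other respiratory complexes had these counts at P14 against P0: 2 of 4 higher in complex II, 8 of 9 in complex III, 9 of 10 in complex IV, and 10 of 15 with 1 lower in complex V. At P28 against P14, 2, 4, 6 and 7 of the same genes were lower and 0 higher by limma, with 1 complex IV gene higher at an unadjusted p under 0.05, by edgeR and by DESeq2 and 0 in the other complexes. At P28 against P0, the counts of higher and lower genes were 1 and 2 in complex II, 6 and 0 in complex III, 3 and 1 in complex IV, and 5 and 4 in complex V. Of all tested genes, 34.4% were higher at P14 against P0 and 9.09% lower at P28 against P14. At P28 against P0, 35.7% were higher and 35.6% lower. The share of higher genes in that comparison was below this 35.7% in complexes II, IV and V and above it in complex III. Complex I subunits, with 28, 11 and 19 of 38 called in the leading direction of each comparison, were not tested against these complexes.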

How the data were processed

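Polyadenylated nuclear RNA of 12 libraries (4 per age) was analysed from 3 deposited tables, 1 per age. The deposited files give normalized read counts (signal). DESeq2 and build mm10 stand in the submitters' processing notes, without a version, and the values show that the 3 ages were normalized separately. Aligner, counting tool, counted strand and gene annotation were not given in the sources used here. Whole reads were recovered in all 12 libraries (100% of values within 0.05 reads of a whole number), and 0 columns lacked a sample.

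Each column was divided by its total over the 25834 genes shared by the tables (CPM) and scaled by a median-of-ratios factor over all 12 libraries. The 15734 genes that reached 1 scaled CPM in 4 or more libraries were tested as log2(scaled CPM + 0.5) with limma 3.58.1 in R 4.3.3 (trend and robust, two-sided, age as a factor with 3 levels, no block), with Benjamini-Hochberg adjustment over all of them and a threshold of 0.05. A change is log2 ± SE with 95% intervals from the same fit. Intervals, and the floor of 3 reads, cover replicate spread and counting error only. The code was tested on simulated data.

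The members and lists were chosen with earlier results of these data known. 1 member enters the counts over members but is not reported here. Values by library are given for the core subunits, every assembly factor, and the 4 largest rises and falls of each comparison; of each other list up to 4 genes with the smallest adjusted p are named, and genes named beyond this were chosen after their values were seen. Mitochondrial genes were matched by Ensembl identifier, since the tables name them differently. Promoter windows and gene positions are those of RefSeq, GRCm38.p6, matched by symbol. Replicate numbers of different ages did not pair the libraries: of 12 same-number pairs, 3 had a correlation of deviations over 0.1 (lowest −0.51, highest 0.36). The 25 alternatives covered pseudocount, filter, scaling, limma settings, edgeR 4.0.16 quasi-likelihood and DESeq2 1.42.0 on recovered reads, a replicate block, and omission of single libraries in turn and of both merged ones. A further one, chosen after seeing the data, left out Ndufa4 with Ndufa4l2.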

Additional observations from a re-analysis of the deposited data

Results flagged for a closer look

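With 4 libraries per age, 138 sets of 4 values (46 genes at 3 ages) were examined for a library far from the other 3, and 5 stood out. Chance alone gives such a gap in about 1 of 20 sets. At P14, replicate 2 had 83.4 scaled CPM of Ndufa3, a short membrane-arm subunit, while the other 3 libraries had 60.8 to 61.9. The same library had 83.8 scaled CPM of Ndufa5, a Q module subunit, against 48.4 to 53.9 in the others. For Ndufaf5, which hydroxylates Ndufs7, it had 51.3 scaled CPM against 33.2 to 35.7. At P0, replicate 4 had 63.8 scaled CPM of Ndufa9, a subunit at the junction of the arms, against 58.4 to 58.8, and replicate 3 had 11.3 scaled CPM of Ndufaf2 against 13.5 to 13.8. Ndufa3, Ndufa5 and Ndufaf5 kept their calls at P14 against P0 without P14 replicate 2.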

How the results depend on the processing

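Leaving out each library in turn gave 27 to 30 subunit genes higher at P14 than at P0 and 1 to 1 lower, and 4 to 6 assembly factors higher and 1 to 1 lower. For P28 against P14 the ranges were 0 to 0 higher and 5 to 12 lower for subunits, and 0 to 0 higher and 0 to 1 lower for assembly factors. For P28 against P0 they were 16 to 21 higher and 3 to 4 lower for subunits, and 4 to 5 higher and 1 to 1 lower for assembly factors. The assembly factor count at P14 against P0 was 4 without P0 replicate 1 and without P0 replicate 2. On the deposited values, 0 assembly factors were lower at P14 than at P0, 25 subunits and 2 assembly factors were lower at P28 than at P14, and 31 subunits were higher, 1 subunit lower and 0 assembly factors lower at P28 than at P0. Of 15759 genes tested on that scale, 3148 were lower at P14 than at P0 and 3862 lower at P28 than at P14. At P28 against P0, 7210 were higher and 4118 lower. The log2 fold changes of Ndufa7 (0.47, adjusted p = 0.000457) and Ndufaf2 (0.0535) at P14 against P0 and of Ndufb11 (0.0321) at P28 against P0 reversed on that scale, whose own construction shifts all genes. Without both merged libraries, 5 subunits and 0 assembly factors were lower at P28 than at P14, and 3 assembly factors were higher and 0 lower at P28 than at P0. With limma on the 8 libraries of the comparison, 0 assembly factors were lower at P28 than at P14. A filter at a mean of 5 scaled CPM, which drops Ndufa4l2, and leaving out Ndufa4 and Ndufa4l2 each gave 0 subunits lower at P14 than at P0. Where no cause is given, the cause was not tested.

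A replicate block gave 28 subunits higher and 1 lower at P14 against P0, 0 and 10 at P28 against P14, and 17 and 4 at P28 against P0. For assembly factors it gave 5 and 1, 0 and 1, and 4 and 1. Same-numbered libraries come from animals of different ages, and 3 of 12 such pairs had a correlation of deviations over 0.1 (highest 0.36). P0 replicate 1 and P14 replicate 2, which differ in number, had 0.596. The other alternatives, among them edgeR, DESeq2 and both pseudocounts (0.1 and 2 CPM), kept every count within 1.5 times of the one reported. Depth limits Ndufa4l2 most, with 10 to 108 reads in a library.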
